A study of Rattus norvegicus with 35 samples.

Results

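The 39 genes described here are the conjugating enzymes of the rat olfactory epithelium that the array names with Gst (glutathione S-transferase), Ugt (UDP-glucuronosyltransferase) or Sult (sulfotransferase). They were found by those first letters of the probe's gene name, whatever the case, and were measured by 52 of the 41012 probes, so that 39 of 35561 gene names are covered. The Gst family had 16 genes on 20 probes, the Ugt family 12 genes on 15 probes and the Sult family 11 genes on 17 probes. Olfactory epithelium RNA of Brown Norway rats, with no treatment named for any group, was hybridized with 1 dye to 35 Agilent whole rat genome arrays. The newborn rats were 19 pups aged 3 to 5 days, of sex not known, from the 4 litters L1 (4 pups), L2, L3 and L4 (5 pups each), with 1 array for each pup. The 4 adult rats, aged 9 weeks, and the 4 old rats, aged 22 months, were males with 2 arrays each, from nostrils A and B, and the 2 arrays of a rat were averaged. The comparisons address which of these enzymes change between birth, adulthood and old age, and which differ between litters.

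Conjugating enzymes attach a polar group to a small lipophilic molecule, which makes it easier to excrete and usually ends its activity. Glutathione S-transferases add glutathione to electrophiles, UDP-glucuronosyltransferases add a sugar acid to alcohols, phenols and steroids, and sulfotransferases add sulphate from the donor PAPS. In the nose these enzymes are rich in the sustentacular cells, which support the sensory neurons, and in Bowman's glands, where they act on inhaled chemicals and can clear odorants from the mucus.

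A level is the log2 of a probe's background-subtracted intensity over the median intensity of its array, so that 1 unit is a doubling. Levels were compared between ages for the same probe only, and a gene stands for its probe with the highest mean level. Of the 39 genes, 23 were above background on every array, 11 on some and 5 on none, and no member was saturated on any array. The newborn arrays had 24 to 29 of the genes above background (median 28), the adult arrays 26 to 29 (median 28) and the old arrays 27 to 30 (median 30). Adult rats were hybridized on slides and scan days of their own and read with an earlier release of the software, so that adult age and batch cannot be told apart. L1 and the old rats shared a scan day, while the other litters had the last 2 of the 5 days. Pups of a litter share a mother. Standard errors (SE) and p values measure the spread between rats within a litter or age group, and leave out the spread between litters.

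The tissue label was checked against cell type markers. Of 6 mature olfactory sensory neuron markers, 6 were above background on every array, Omp among them, with a newborn mean level of 5.16, an adult one of 7.57 and an old one of 8.26. The summed signal of 3 sustentacular markers (Cyp2g1, Cyp1a2 and Hes1), in units of the array median, was 85.9 to 303 in the pups, 714 to 821 in the adult rats other than rat 13, whose Cyp1a2 value is missing, and 1131 to 1423 in the old rats. The 5 Bowman's gland markers, 3 of them above background on every array, did not share that order. They summed to 144.2 to 1101 in pups, 247.4 to 282.8 in adult and 557.5 to 696.4 in old rats. Skeletal muscle markers, absent from the epithelium itself, summed to 16.4 to 526 in pups, 0.812 to 1.83 in adult and 0.616 to 1.06 in old rats. Of 5 hepatocyte markers, 0 were above background on every array. Cps1 was above it on none, Apoh on 2, Alb on 4 and Tat on 10 newborn arrays and no older one, and G6pc on 11 newborn, 6 adult and 5 old arrays. The red cell markers Hbb and Alas2 had mean levels of 7.02 and 8.35 in newborn, 5.36 and 4.94 in adult and 6.70 and 6.97 in old rats. The osteoblast markers Ibsp and Col1a1 had 8.09 and 10.98 in newborn, 8.32 and 10.67 in adult, and 4.25 and 7.33 in old rats. Fewer cells of a type and less RNA per cell cannot be told apart in these tissue samples, and the part of cell composition in the differences below was not tested.

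Between newborn and adult rats, the conjugation genes split into 9 that were higher and 9 that were lower in newborn rats, with 21 not called (limma, adjusted p under 0.01). Over all probes tested, 26.8% were called higher and 19.8% lower, against 23.1% of the members in each direction, so the members did not stand apart by count. At an additional threshold of 5-fold, 0 members were higher and 5 were lower (12.8%), where 2.26% and 1.65% of all probes were. The 5 were Ugt2a1, Ugt2a3, Ugt8, Sult1b1 and Sult1d1. Newborn rats were mostly below background for Ugt2a3 and Ugt8, whose size rests on the floor for low values, and with the floor of 0.1 or the 75th percentile 3 genes were left, Ugt2a1, Sult1b1 and Sult1d1, and with normexp 2, Gsta3 and Ugt2a1. The median log2 change of the 39 genes was -0.11, beside 0.10 over all probes, which is -0.21 relative to them. Every pup lay beyond every adult rat for 13 genes (33.3%, against 26.7% of all probes).

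Between newborn and old rats the members fell mostly on one side. Only Sult2b1 and Ugt1a2 were higher in newborn rats (5.13% of the members, against 20.4% of all probes), while 15 genes were lower (38.5%, against 22.7%). With the 5-fold threshold 0 were higher and 5 lower, Gsta3, Sult1b1, Sult1d1, Sult5a1 and Ugt2a1, where the shares of all probes were 2.96% and 1.85%. The median change was -0.47, or -0.43 relative to all probes, and the groups did not overlap for 14 genes (35.9%, against 22.3%). Among the 23 genes expressed in every group, 15 were lower in newborn than in old rats (65.2%), beside 31.5% of the probes expressed in every group.

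Between adult and old rats, 13 members were lower and 1 was higher in adult rats (33.3% and 2.56%, against 20.2% and 11.7% of all probes). None reached 5-fold, which 1.11% of all probes did downwards and 1.22% upwards. The median change was -0.58, or -0.44 relative to all probes, and the groups did not overlap for 24 genes (61.5%, against 43.6%). Scaling matters for both comparisons with adult rats. Quantile normalization moved the median of all probes from 0.10 to 0.00 for newborn against adult and from -0.13 to -0.00 for adult against old rats, and the share of higher among all called probes from 57.6% to 46.8% and from 36.7% to 51.8%. Under it the members were 7 higher and 14 lower in newborn than in adult rats, and 2 higher and 9 lower in adult than in old rats, while newborn against old changed little, with 3 higher and 17 lower.

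**Figure D1:**
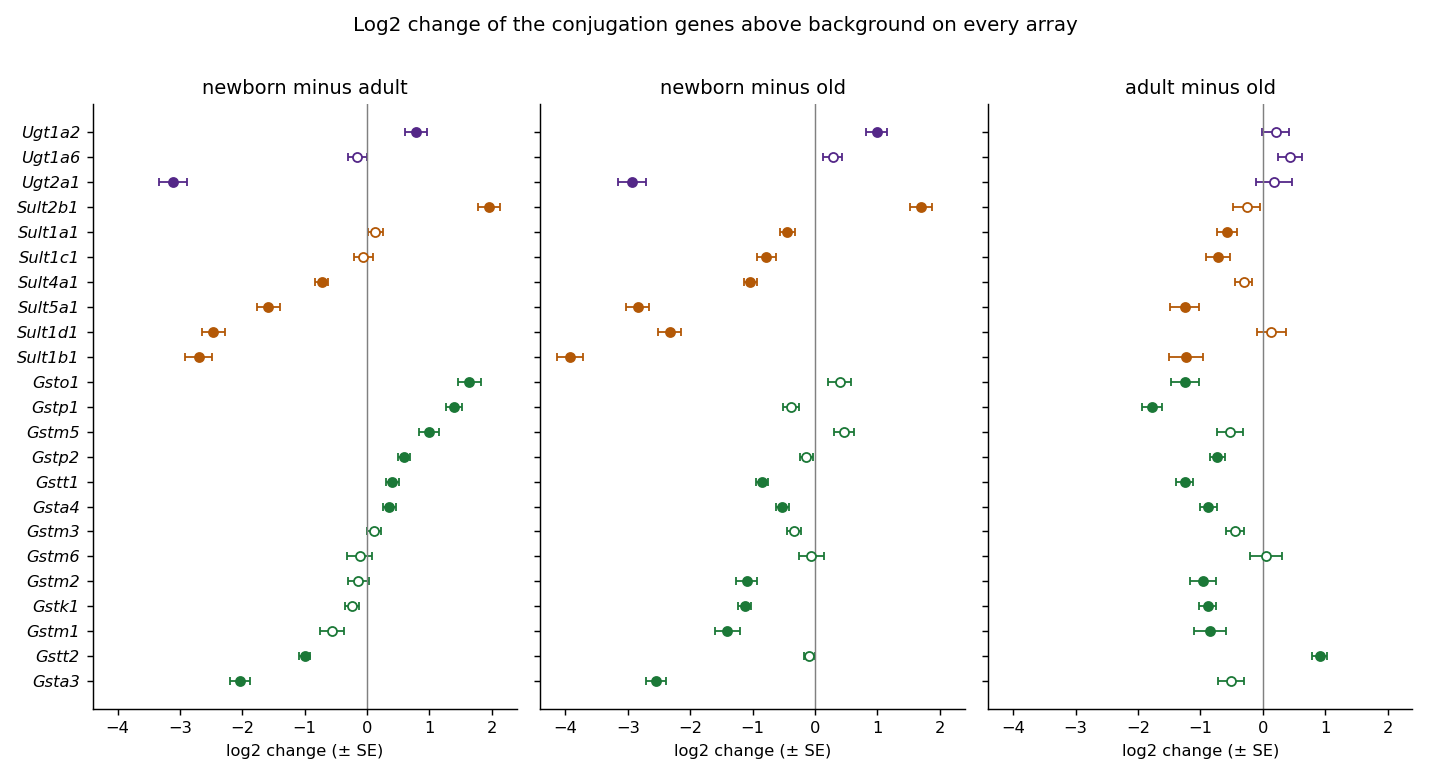
Log2 change (± SE from the fit) of the 23 conjugation genes above background on every array, for newborn minus adult, newborn minus old and adult minus old rats; filled points have an adjusted p under 0.01, and colours mark Gst (green), Sult (orange) and Ugt (purple). Ugt2a1, Sult1b1, Sult1d1 and Gsta3 lie far to the left in both newborn comparisons, Sult2b1 lies to the right in both, and Gstp1 and Gsto1 are filled to the right against adult rats alone; Gsta4 and Gstp2, called to the right in the first panel, moved to the left of 0 with quantile normalization.

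Ugt2a1, the glucuronosyltransferase known for its expression in olfactory tissue, had the largest change among the members called between newborn and adult rats. Its level was between 5.52 and 7.11 in the 19 pups, with a median of 6.43. The 4 adult rats had 9.66, 9.45, 9.72 and 9.42, and the 4 old rats 9.10, 9.34, 9.39 and 9.71. Every pup lay below every adult and old rat, while adult and old rats overlapped. The newborn level, 6.45 ± 0.18 (SD of the 4 litter means), was 3.12 ± 0.22 (SE) below the adult level of 9.56 ± 0.15 (SD, n = 4), a fold of 8.67 (adjusted p = 3.84e-11), and 2.94 ± 0.22 below the old level of 9.38 ± 0.25, a fold of 7.66 (adjusted p = 1.7e-10). Adult and old rats differed by 0.18 ± 0.29 (adjusted p = 0.675), or by 0.97 with quantile normalization (adjusted p = 0.00806), and the means of L1 to L4, in that order 6.70, 6.39, 6.43 and 6.27, gave an adjusted p of 0.598. L1 against old rats, which shared a scan day, gave -2.69 (adjusted p = 5.02e-06).

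Ugt2a1 lies in a cluster of genes on chromosome 14 in build rn3, the coordinates of the array files. The probes of Sult1d1, Sult1b1 and Ugt2a1 follow each other there within 67.3 kb, and these 3 genes were the members above background on every array that changed over 5-fold between newborn and adult rats. The neighbourhood was looked at after these values were seen and is described without a test. The Sult1d1 probe is at chr14:22001402-22001461, the Sult1b1 probe that stands for the gene at chr14:22031815-22031874, its second probe at chr14:22031714-22031773 and the Ugt2a1 probe at chr14:22068631-22068690, all on the plus strand. Bases 16 to 45 of each 60-base probe are shown, as deposited. The 3 genes had the largest changes between newborn and adult rats among members above background on every array, at the scaling used here. Against old rats Sult5a1 and Gsta3 changed more (-2.84 and -2.55) than Sult1d1 (-2.33). Whether a probe lies in coding sequence or in the untranslated end was not determined here.
Ugt2a1 probe: cattaggatccaatacgagattgtttgact
Sult1d1 probe: tttgaagaagattatgtcaagaaaatggaa
Sult1b1 probe, higher signal: gtgatcttagttttcaaagggtatgtcttc
Sult1b1 probe, second: ggagaaataaatgtgcttttaaaacactga

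No member farther along the cluster was above background on every array. Ugt2a3, 98.6 kb from the Sult1d1 probe, was above background on 1 of 35 arrays, an adult one, and its call as lower in newborn than in adult rats (adjusted p = 0.000758) has no fold. The 5 Ugt2b genes, 177.4 to 741.8 kb from the Sult1d1 probe, were above background on 0 to 14 of the 35 arrays, Ugt2b and Ugt2b3 on 0, Ugt2b4 on 3, Ugt2b10 on 4 and Ugt2b5 on 14 (8 newborn, 1 adult and 5 old arrays). Ugt2b enzymes are known from the liver, where they glucuronidate steroids and bile acids. Ugt2b3 was called lower in newborn than in old rats (adjusted p = 0.000532) although it was below background on all arrays, and the call was lost with the 75th percentile, with normexp, with the higher floor and with L1 alone, and the 75th percentile turned its sign to 0.01. The probes of Ugt2b and of Ugt2b5 (the one with the lower signal) shared 51 of 60 bases, so those 2 genes may share signal. Of 5 other probes in the same 742 kb, 2 were above background on some array, each on 1. The 5 are other by the name rule only, which left out the gene named Udpgtr2.

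**Figure D2:**
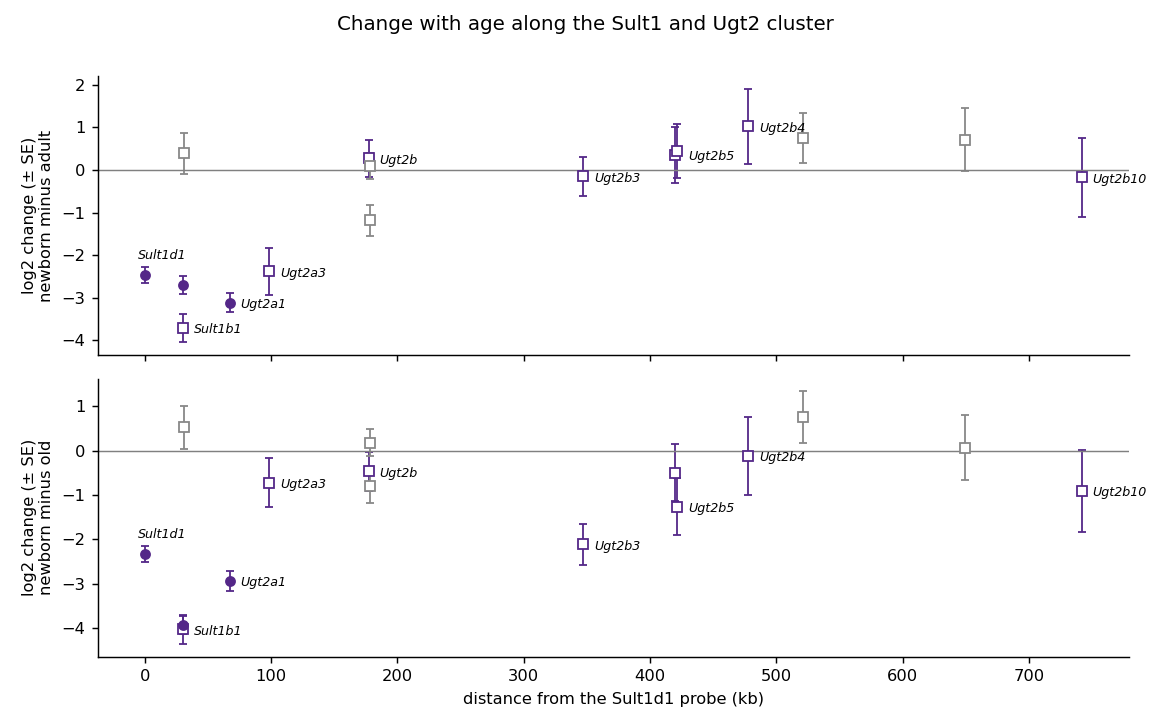
Log2 change (± SE) against distance in kb from the Sult1d1 probe, for newborn minus adult (top) and newborn minus old rats (bottom). Filled circles were above background on all 35 arrays and open squares were not. Genes found by a Gst, Ugt or Sult name are in purple and other probes, Udpgtr2 among them, in grey. The filled Sult1d1, Sult1b1 and Ugt2a1 probes lie between -3.93 and -2.33 in both panels, and no Ugt2b probe was above background on every array.

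Sult1b1, a sulfotransferase of thyroid hormones and small phenols, was lowest in newborn and highest in old rats. Its level ran from -0.25 to 1.16 in the pups, with a median of 0.39. The adult rats had 2.98, 3.09, 3.30 and 3.05, and the old rats 4.09, 4.69, 4.58 and 3.97. The 3 ages did not overlap. Newborn rats were 2.70 ± 0.21 below adult rats, a fold of 6.50 (adjusted p = 1.46e-10), and 3.93 ± 0.21 below old rats, a fold of 15.2 (adjusted p = 4.25e-13). Its second probe was above background on 1 of 19 newborn arrays and on all adult and old ones, so that no size is given for it against newborn rats. The probes differed between adult and old rats, with -1.23 ± 0.27 (adjusted p = 0.000729) for the brighter probe and -0.32 ± 0.43 (adjusted p = 0.607) for the second.

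Sult1d1, a sulfotransferase known to act on catecholamines, rose between newborn and adult rats and not after. The pups ranged from -1.09 to 1.47 (median 0.69), the adult rats had 3.50, 3.09, 2.68 and 2.43, and the old rats 2.60, 2.78, 3.11 and 2.67. Every pup was below every older rat, and adult and old rats overlapped. The change was -2.46 ± 0.18 against adult rats (a fold of 5.52, adjusted p = 7.38e-11), -2.33 ± 0.18 against old rats (a fold of 5.02, adjusted p = 3.08e-10) and, for adult against old rats, 0.14 ± 0.24 (adjusted p = 0.704). Of the 13 genes called between litters, Sult1d1 had the widest range of litter means. L1 pups averaged -0.83, against 1.02, 1.12 and 0.53 for L2 to L4 (adjusted p = 1.65e-06), and the SD of the 4 litter means was 0.90. The 3 sustentacular markers summed to 85.9 to 161 in L1. This overlapped the other litters, with 87.0 to 303.4 in L2, 132.0 to 262.6 in L3 and 103.6 to 191.3 in L4. The part of these markers in the litter difference was not tested.

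Sult5a1, a sulfotransferase of little-known function on chromosome 19 (chr19:53477707-53477766), also rose at each age. The pups ranged from 2.69 to 4.32 (median 3.60), the adult rats had 5.06, 5.02, 5.30 and 5.25, and the old rats 6.42, 6.32, 6.32 and 6.59. No 2 ages overlapped. The change was -1.58 ± 0.18 for newborn against adult (a fold of 3.00, adjusted p = 9.09e-08), -2.84 ± 0.18 for newborn against old (a fold of 7.15, adjusted p = 1.01e-11) and -1.25 ± 0.23 for adult against old rats (adjusted p = 0.000138). Sult4a1, a sulfotransferase of neurons, was lower in newborn rats by a smaller margin, with -0.73 ± 0.11 against adult (adjusted p = 4.13e-06) and -1.04 ± 0.11 against old rats (adjusted p = 2.93e-08). Between adult and old rats it gave -0.31 ± 0.14, which missed the threshold (adjusted p = 0.0818) and was 0.08 with quantile normalization.

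Sult1c1 (Sult1c3 in the reference table) and Sult1a1, a phenol sulfotransferase, did not pass the test between newborn and adult rats at the scaling used here. Sult1c1 gave -0.06 ± 0.15 there (adjusted p = 0.764), but -0.78 ± 0.15 against old rats (adjusted p = 0.000141) and -0.72 ± 0.20 for adult against old rats (adjusted p = 0.0046, lost with quantile normalization at -0.04). Against adult rats Sult1c1 was called lower in newborn rats with quantile normalization, at -0.79 (adjusted p = 1.47e-05), and with normexp, at -0.82 (adjusted p = 5.9e-06). Sult1a1 was 0.44 lower in newborn than in old rats (adjusted p = 0.00368), a call lost without L1. Of the other Sult genes, Sult1c2 and Sult1c2a were above background on 21 and 30 arrays and passed no age comparison on the probes that stand for them, Sult2a2 was above it on 3 arrays and Sult2a1 on none. A second probe of Sult1c2a, above background on 15 arrays, was called lower in newborn than in old rats (adjusted p = 0.000375), with no size given since 2 of 19 newborn arrays were above background, where the first gave -0.43 ± 0.23 (adjusted p = 0.117).

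Sult2b1, which sulfates cholesterol and pregnenolone and is best known from skin, was the member with the largest change in the other direction. The pups ranged from 0.74 to 2.37 (median 1.70), the adult rats had 0.02, -0.39, -0.25 and -0.52, and the old rats 0.18, -0.11, -0.27 and 0.09. All pups were above all older rats. Newborn rats were 1.96 ± 0.17 above adult rats, a fold of 3.88 (adjusted p = 8.89e-10), and 1.70 ± 0.17 above old rats, a fold of 3.25 (adjusted p = 1.3e-08), while adult and old rats differed by -0.26 ± 0.22 (adjusted p = 0.377).

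**Figure D3:**
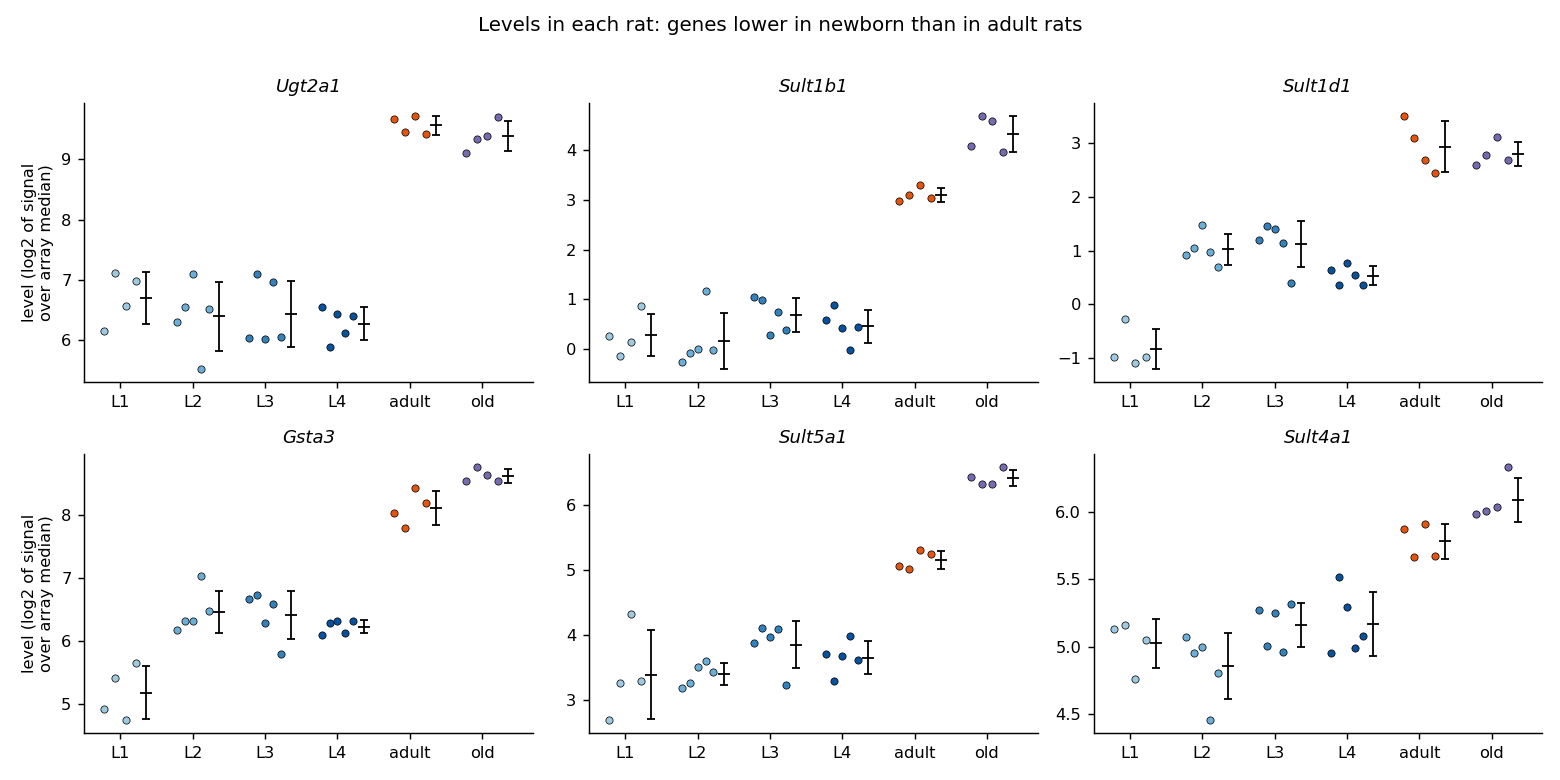
Level of 6 genes in each rat, as the log2 of signal over the array median, by litter (L1 to L4), adult and old; each point is a rat, and the bar beside each group is its mean ± SD. All adult and old rats lie above all pups in each of the 6 panels, and the L1 pups lie below the other litters for Gsta3 and Sult1d1.

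The remaining Ugt genes followed no common direction. Ugt1a2, above background on every array, was higher in newborn rats, by 0.79 ± 0.17 against adult (adjusted p = 0.000368) and 0.99 ± 0.17 against old rats (adjusted p = 2.98e-05); its pups, from 2.80 to 4.47, overlapped the adult rats (2.33, 2.47, 2.95 and 3.06) but not the old ones (2.67, 2.47, 2.46 and 2.37). L1 alone against old rats gave 0.63 (adjusted p = 0.0171). Its second probe, also above background on every array, was not called against adult rats, at 0.35 ± 0.16 (adjusted p = 0.0637), but was against old rats, at 0.71 ± 0.16 (adjusted p = 0.000518), and the call of the first against adult rats was lost with the methods' t-test. Genes of the Ugt1a cluster are known to share their last exons, so a probe there can report several of them. Ugt1a6, a phenol glucuronosyltransferase, gave -0.15 ± 0.15 against adult and 0.29 ± 0.15 against old rats (adjusted p = 0.415 and 0.117). Ugt1a1, the bilirubin enzyme, and Ugt1a9-ps were below background on all 35 arrays. Ugt8, which makes the galactolipid of myelin, was above background on 4 of 19 newborn arrays and on all adult and old arrays. It was called lower in newborn than in adult rats (adjusted p = 0.00473), a call lost with the authors' matrix and when any adult rat was left out, and was not called against old rats (adjusted p = 0.0154). With the 75th percentile, the floor of 0.1 and normexp it was called lower than in adult rats (adjusted p = 3.13e-07, 1.22e-06 and 4.22e-09). The same settings called it lower than in old rats (adjusted p = 1.03e-05, 2.35e-05 and 8.11e-06). Every pup lay below every adult and old rat. The size is not well measured with most pups below background, since the log2 difference from adult rats was -2.60 with the floor used here, -2.09 with the floor of 0.1 and -0.54 with normexp.

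In the Gst family 7 genes were higher and 2 lower in newborn than in adult rats, 0 were higher and 7 lower than in old rats, and 1 was higher and 9 were lower in adult than in old rats, counts that became 5 and 6, 1 and 9, and 1 and 6 with quantile normalization. As shares of the 16 genes these were 43.8% and 12.5% (26.8% and 19.8% of all probes), 0% and 43.8% (20.4% and 22.7%), and 6.25% and 56.2% (11.7% and 20.2%). The excess of higher genes against adult rats thus turned with the scaling, while the direction against old rats did not. Among the 13 Gst genes above background on every array, the mean was highest in old rats for 9 and lowest in adult rats for 7, where 36.4% and 44.7% of all such probes had that order, and with quantile normalization these were 8 and 4.

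Gsta3 (the alpha class enzyme that the reference table calls Gsta1) had the largest decrease in newborn rats of the Gst genes. The pups ranged from 4.74 to 7.03 (median 6.28), the adult rats had 8.03, 7.79, 8.43 and 8.18, and the old rats 8.55, 8.76, 8.63 and 8.54. Every pup was below every older rat. Newborn rats were 2.04 ± 0.16 below adult (a fold of 4.11, adjusted p = 2.09e-10) and 2.55 ± 0.16 below old rats (a fold of 5.87, adjusted p = 8.06e-12). Adult against old rats gave -0.51 ± 0.21 (adjusted p = 0.0511), and 0.09 with quantile normalization. As for Sult1d1, L1 stood low, at 5.17 against 6.46, 6.41 and 6.22 in L2, L3 and L4 (adjusted p = 6.2e-05). The SD of the 4 litter means of Gsta3 was 0.60.

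Gstp1, the pi class enzyme of many epithelia and tumours, was lowest in adult rats. The pups ranged from 7.18 to 8.54 (median 7.60), the adult rats had 6.09, 6.10, 6.43 and 6.32, and the old rats 8.04, 8.0, 7.91 and 8.09. All adult rats were below all pups and all old rats. Newborn rats were 1.39 ± 0.13 above adult rats, a fold of 2.63 (adjusted p = 2.55e-09), and adult rats 1.77 ± 0.17 below old rats, a fold of 3.42 (adjusted p = 1.35e-08), while newborn and old rats differed by -0.38 ± 0.13 (adjusted p = 0.0155). The red cell markers were also lowest in adult rats at this scaling, and their part in the difference was not tested. With quantile normalization the changes involving adult rats were 0.96 and -1.36, still called. Newborn rats were then called lower than old rats, at -0.40 (adjusted p = 0.00178). They were also called lower with the 75th percentile, at -0.43 (adjusted p = 0.00418), and with normexp, at -0.39 (adjusted p = 0.000698). Gstp2, whose probe is the neighbour of Gstp1 on chromosome 1, gave 0.59 ± 0.10 for newborn against adult and -0.73 ± 0.13 for adult against old rats (adjusted p = 1.66e-05 and 5.91e-05). With quantile normalization these were -0.19 and -0.02 and not called (adjusted p = 0.0345 and 0.937), so that the first changed sign.

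Gsto1, the omega class enzyme that reduces dehydroascorbate, had a pattern like that of Gstp1. The pups ranged from 4.62 to 5.69 (median 5.17), the adult rats had 3.11, 3.48, 3.47 and 4.10, and the old rats 4.91, 4.65, 4.85 and 4.73. The adult rats lay below all others. Newborn rats were 1.64 ± 0.18 above adult (a fold of 3.12, adjusted p = 3.99e-08), adult rats 1.25 ± 0.23 below old (a fold of 2.37, adjusted p = 0.000122), and newborn against old rats gave 0.40 ± 0.18 (adjusted p = 0.0688). Gsta2, an alpha class enzyme, was above background on 16 of 19 newborn and all 8 old arrays but on 0 of 8 adult arrays. It was at least 2.19-fold higher in newborn (adjusted p = 0.000233) and at least 2.83-fold higher in old (adjusted p = 0.000636) than in adult rats, where the adult side is a bound set by the lowest signal well above background. A second probe, above background on 13 arrays, was called between newborn and adult (adjusted p = 0.00417) and not between adult and old rats (adjusted p = 0.0539).

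Gstm5 was higher in newborn than in adult rats by 0.99 ± 0.16 (adjusted p = 1.22e-05), with pups from 7.0 to 8.34 overlapping the adult rats at 7.03, 6.71, 6.82 and 6.60. It has 2 other probes, placed on the opposite strand of chromosome 2, which gave 0.63 ± 0.12 and 0.61 ± 0.12. The mu class genes Gstm1 and Gstm2 rose towards old age: newborn rats were 1.41 ± 0.20 (adjusted p = 2.51e-06) and 1.10 ± 0.17 (adjusted p = 7.51e-06) below old rats, and for Gstm1 the pups (8.45 to 9.99) lay below the old rats (10.70, 10.52, 10.34 and 10.85). Against adult rats both missed the threshold, with -0.56 ± 0.20 (adjusted p = 0.0198) and -0.14 ± 0.17 (adjusted p = 0.525), but passed it with quantile normalization, at -1.43 and -0.81. Adult rats were 0.85 ± 0.26 below old rats for Gstm1 (adjusted p = 0.00997) and 0.96 ± 0.22 below them for Gstm2 (adjusted p = 0.00093), and with quantile normalization these were -0.04 and -0.31 and not called. The call of Gstm1 was kept in 16 of 42 alternatives. Gstm3 and Gstm6 passed no age comparison at the scaling used here. For newborn against old rats Gstm3 gave -0.33 ± 0.11 (adjusted p = 0.0136). It was called lower there with the 75th percentile, quantile normalization and normexp (adjusted p = 0.00247, 0.00552 and 0.00286). Gstm4, above background on 21 arrays, was called lower in newborn than in old rats (adjusted p = 3.72e-05). Only 7 newborn arrays, 0 of them from L2, were above background for Gstm4, beside 8 old arrays, so its size is not well measured. The log2 change was -1.44 at the scaling used here, -1.42 with the floor of 0.1 and -0.31 with normexp, where it was still called (adjusted p = 0.000615).

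Gstk1, the kappa class enzyme of mitochondria and peroxisomes, was higher in old rats (5.43, 5.27, 5.11 and 5.32) than in all pups (3.54 to 4.57, median 4.26) and all adult rats (4.32, 4.14, 4.59 and 4.54). The change was -1.13 ± 0.11 for newborn against old (adjusted p = 8.66e-09) and -0.88 ± 0.14 for adult against old rats (adjusted p = 2.12e-05). Gsta4, which conjugates the lipid peroxidation product 4-hydroxynonenal, was lower in adult than in old rats by 0.88 ± 0.14 (adjusted p = 1.48e-05) and in newborn than in old rats by 0.52 ± 0.11 (adjusted p = 0.000215). Its small excess in newborn over adult rats, 0.36 ± 0.11 (adjusted p = 0.006), was lost with quantile normalization, at -0.14 (adjusted p = 0.124). Gsto2 passed no age comparison at the scaling used here. For newborn against adult rats it gave -0.64 ± 0.22 (adjusted p = 0.0148). It was called lower there with the 75th percentile, quantile normalization and normexp (adjusted p = 0.00264, 0.0095 and 0.00668).

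The theta class genes went apart. Gstt1 was lowest in adult rats (1.24, 1.35, 1.34 and 1.55) and highest in old rats (2.66, 2.61, 2.54 and 2.68), with -1.25 ± 0.13 between them (adjusted p = 8.06e-08), -0.85 ± 0.10 for newborn against old (adjusted p = 2.73e-07) and 0.41 ± 0.10 for newborn against adult rats (adjusted p = 0.00167, lost with the 75th percentile). Gstt2 was the one member higher in adult (2.82, 2.75, 2.74 and 2.84) than in old rats (1.86, 1.84, 1.94 and 1.86), by 0.91 ± 0.12 (adjusted p = 1.33e-06), and newborn rats were 1.0 ± 0.09 below adult rats (adjusted p = 2.21e-09). That SE leaves out the spread between litters, and the SD of the 4 litter means of Gstt2 was 0.67, with L1 at 0.79. Its other probe gave -1.08 ± 0.09 for newborn against adult, -1.18 ± 0.09 for newborn against old and -0.10 ± 0.12 for adult against old rats (adjusted p = 0.554), so the probes disagree on the old rats. They also disagree on L1, whose mean was 1.60 on the other probe and the highest of the litters.

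**Figure D4:**
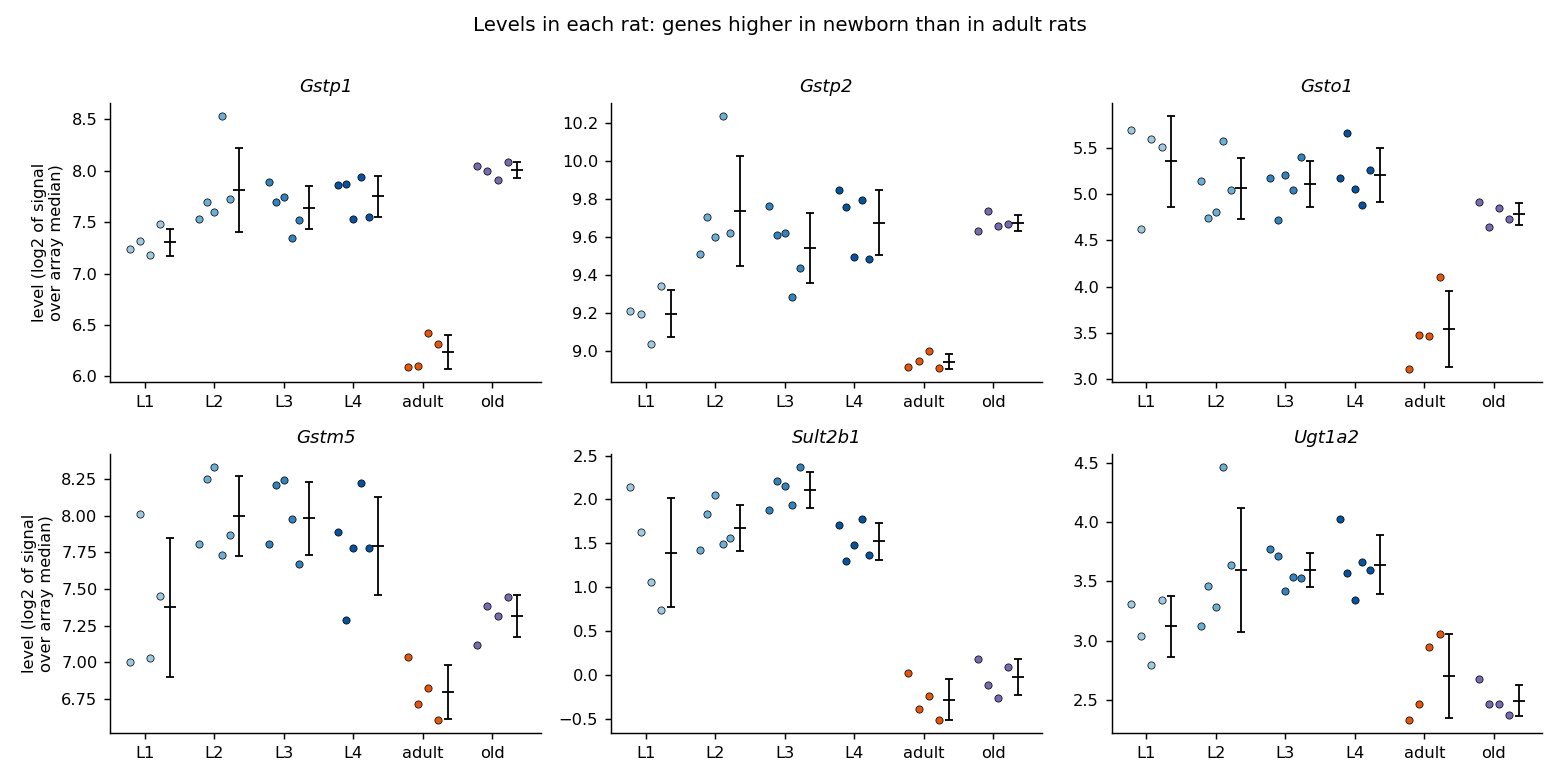
Level of 6 genes called higher in newborn than in adult rats, in each rat, as the log2 of signal over the array median; points are rats and bars the group mean ± SD. For Gstp1, Gstp2 and Gsto1 the old rats overlap the pups and all adult rats lie below both, whereas for Sult2b1 adult and old rats are both low. For Gstp1 the median of the pups lies below every old rat. For Gstp2 the difference between newborn and adult rats changed sign with quantile normalization and was not called (adjusted p = 0.0345).

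Many Gst promoters are known to carry an antioxidant response element, whose core TGACNNNGC binds Nfe2l2 with a small Maf partner. The core was searched on both strands of the 300-base windows (250 before to 50 after the start) that RefSeq gives for build GRCr8. A window was found for 32 of the 39 genes, and not used for the other 7, Ugt2a1 among them. The core occurred in 5 of 13 Gst windows, 0 of 9 Ugt windows and 0 of 10 Sult windows, and in 12.1% of all 33469 windows. The Olf/Ebf site, found in 0.834% of all windows, was in none of the 32. The 5 Gst genes with a core were Gsta2, Gsta3, Gstm3, Gstm5 and Gstp1, of which 3 were higher and 1 lower in newborn than in adult rats. The windows of Gstp1, Gsta2 and Gsta3 are shown since these genes share the core, in capitals, but went in different directions with age, and those of Sult1d1 and Sult1b1 as the neighbours that were both low in newborn rats and hold no core. A match is a run of letters and not a measured site.
Gstp1, chr1:210769656-210769955, minus strand: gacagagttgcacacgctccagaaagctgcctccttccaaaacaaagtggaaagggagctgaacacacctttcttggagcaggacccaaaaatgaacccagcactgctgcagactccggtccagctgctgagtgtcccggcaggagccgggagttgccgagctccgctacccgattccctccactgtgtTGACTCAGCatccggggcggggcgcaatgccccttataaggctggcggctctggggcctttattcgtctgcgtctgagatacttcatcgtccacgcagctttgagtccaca
Gsta2, chr8:88077043-88077342, minus strand: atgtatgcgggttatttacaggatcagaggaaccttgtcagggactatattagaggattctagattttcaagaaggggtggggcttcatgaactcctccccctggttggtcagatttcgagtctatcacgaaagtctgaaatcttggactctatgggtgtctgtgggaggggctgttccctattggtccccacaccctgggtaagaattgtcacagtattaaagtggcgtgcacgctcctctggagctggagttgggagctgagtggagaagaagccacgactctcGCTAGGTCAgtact
Gsta3 (Gsta1), chr9:31216483-31216782, minus strand: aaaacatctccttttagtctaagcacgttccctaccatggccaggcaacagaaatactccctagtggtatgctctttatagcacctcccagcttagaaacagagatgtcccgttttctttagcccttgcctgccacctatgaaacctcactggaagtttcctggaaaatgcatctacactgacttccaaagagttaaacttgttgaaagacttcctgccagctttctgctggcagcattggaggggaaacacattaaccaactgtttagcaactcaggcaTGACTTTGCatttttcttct
Sult1d1, chr14:20720829-20721128, plus strand: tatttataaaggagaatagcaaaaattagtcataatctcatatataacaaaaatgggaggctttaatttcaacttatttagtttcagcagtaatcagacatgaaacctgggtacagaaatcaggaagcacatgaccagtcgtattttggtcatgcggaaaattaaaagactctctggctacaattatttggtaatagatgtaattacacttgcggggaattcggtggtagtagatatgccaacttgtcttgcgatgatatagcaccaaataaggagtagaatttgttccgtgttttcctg
Sult1b1, chr14:20771667-20771966, plus strand: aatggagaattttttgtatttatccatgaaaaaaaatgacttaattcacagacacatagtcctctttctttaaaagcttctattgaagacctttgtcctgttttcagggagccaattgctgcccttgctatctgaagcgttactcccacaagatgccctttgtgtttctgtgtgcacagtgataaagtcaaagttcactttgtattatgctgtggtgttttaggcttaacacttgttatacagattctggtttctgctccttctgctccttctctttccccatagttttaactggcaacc

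The core of Gstp1 starts 61 bases before the start site, whereas those of Gsta2 and Gsta3 lie after it, at bases 37 and 31. Of 11 regulator genes on the array, 1 was higher and 4 were lower in newborn than in adult rats (9.09% and 36.4%, against 26.8% and 19.8% of all probes). Nfe2l2 itself was 1.13 ± 0.11 lower in newborn than in adult rats (adjusted p = 6.93e-09) and 0.79 ± 0.11 lower than in old rats (adjusted p = 2.36e-06). Bach1, which competes for the same core, was 2.25 ± 0.14 higher in newborn than in adult rats (adjusted p = 2.16e-12) and 1.08 ± 0.14 higher than in old rats (adjusted p = 4.91e-07). Keap1, which retains Nfe2l2, gave 0.10 ± 0.06 against adult (adjusted p = 0.188) and -0.47 ± 0.06 against old rats (adjusted p = 8.26e-07).

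The litters differed for 13 of the 39 genes (33.3%, F test over the 4 litters, adjusted p under 0.01), where 22.6% of all probes were called. The 13 were 9 Gst and 4 Sult genes and no Ugt gene, and L1 had the lowest mean for 10 of them and the highest for 0. Over all 39 genes L1 was lowest for 19 and highest for 13, and the order of litters over all probes was not counted. Gstt2 had the lowest p, with 0.79 in L1 against 2.02, 2.18 and 2.16 in L2, L3 and L4 (adjusted p = 7.22e-09), followed by Sult1d1 and Gsta3. The other Gstt2 probe, also above background on every array, did not have L1 low. It gave 1.60, 1.01, 1.46 and 1.59 in L1 to L4, with L1 highest and L2 lowest (adjusted p = 0.00029). L1 was hybridized on 1 slide of its own and scanned with the old rats, so that litter and batch cannot be told apart for it. Without L1, 2 genes were called, Gstt1 (adjusted p = 0.000537) and Gstm6 (adjusted p = 0.00875). That is 5.13% of the members, beside 5.22% of all probes. Without L1 the same 9 higher and 9 lower genes were called against adult rats, while against old rats Sult1a1 was no longer called lower and Gstm5 was called higher, with 2 of 2 and 14 of 15 calls kept.

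The genes that supply the conjugation reactions were counted from lists. These lists and the regulators above are given at the array-median scaling only. How their comparisons with adult rats depend on scaling was not examined. Of 20 genes of glutathione supply and use on the array, 7 were higher and 4 lower in newborn than in adult rats, 0 and 6 in newborn than in old rats, and 1 and 9 in adult than in old rats, with medians of 0.43, -0.23 and -0.74. The shares were 35% and 20%, 0% and 30%, and 5% and 45%, to be read against 26.8% and 19.8%, 20.4% and 22.7%, and 11.7% and 20.2% of all probes, as for the lists that follow. Gpx4, a lipid peroxidase, gave 0.50 ± 0.07 (adjusted p = 1.47e-06), -0.64 ± 0.07 (adjusted p = 6.1e-08) and -1.14 ± 0.09 (adjusted p = 1.19e-09) in these comparisons. Gpx3 went the other way in both comparisons with adult rats. It gave -1.76 ± 0.22 (adjusted p = 4.09e-07), -0.31 ± 0.22 (adjusted p = 0.271) and 1.46 ± 0.29 (adjusted p = 0.000251), in the same order. Gclc, the rate-limiting enzyme of glutathione synthesis, and Gsr, which regenerates glutathione, were lower in newborn than in adult rats, by 1.01 ± 0.14 (adjusted p = 1.37e-06) and 1.27 ± 0.12 (adjusted p = 5.43e-09).

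Of 6 genes of glucuronic acid supply, 3 (50%) were lower and 1 (16.7%) higher in newborn than in adult rats, and as many against old rats. Ugdh, which makes the sugar donor UDP-glucuronic acid, changed by -0.80 ± 0.13 (adjusted p = 1.1e-05) and -0.60 ± 0.13 (adjusted p = 0.000417), and Ugp2, which makes its precursor, by -1.0 ± 0.09 (adjusted p = 3.51e-09) and -1.03 ± 0.09 (adjusted p = 3.05e-09). Gusb, which cleaves glucuronides again, was 0.93 ± 0.13 (adjusted p = 1.44e-06) and 1.32 ± 0.13 (adjusted p = 8.77e-09) higher in newborn rats. No gene of this list was called between adult and old rats.

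Of 10 genes of sulphate supply and use, 2 were higher and 2 lower in newborn than in adult rats (20% each), and 2 higher and 4 lower than in old rats (20% and 40%). The PAPS synthases Papss1 and Papss2 gave 0.17 ± 0.08 and 0.18 ± 0.15 against adult rats (adjusted p = 0.0845 and 0.341), while Papss1 was 0.37 ± 0.08 above old rats (adjusted p = 0.000711). Of 24 other conjugating and phase 1 enzymes, which act before conjugation, 5 were higher and 9 lower in newborn than in adult rats (20.8% and 37.5%) and 3 higher and 15 lower than in old rats (12.5% and 62.5%). Cyp2g1 and Cyp1a2, cytochromes of the olfactory mucosa that are also sustentacular markers here, were among the lower ones, with -1.96 ± 0.23 (adjusted p = 1.53e-07) and -3.72 ± 0.24 (adjusted p = 9.53e-12) against adult rats.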

How the data were processed

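RNA of olfactory epithelium was labelled with Cy3 and hybridized to 35 one-colour Agilent arrays with probes of 60 bases. The authors extracted the deposited intensity values with Agilent Feature Extraction, which subtracts background and removes spatial trends. The deposited matrix of ratio values was made by the authors by setting negative values to 0.01, dividing by the array median and then by each gene's median, and served as an alternative. Arrays have no read depth, and their number limits the precision.

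Here each of 41012 non-control probes was divided by its array's median, set to 0.01 where lower, and taken to log2, after outlier spots were left out (4189 spot values of 732 probes, so that 890 levels are missing, 1 of them of a member). Arrays of a rat were averaged, which gave 27 rats in 6 groups. Groups were compared with limma 3.58.1 in R 4.3.3 over all probes with Benjamini-Hochberg adjustment, and a call was an adjusted p under 0.01. Newborn is the mean of the 4 litters. A probe counted as above background where at least 0.5 of its spots carried the flags for a positive and significant signal and for one well over background, without those for non-uniformity or saturation. The scripts were tested on simulated data, and figures and joins used Python 3.11.15, pandas 2.3.3, numpy 2.4.6 and matplotlib 3.10.9.

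A gene stands for its probe with the highest mean level. Values in every group were given by rule for the brightest gene of each subfamily and for the 5 called genes of largest change in each age comparison and direction, and any other member may be named. Members and lists were chosen with earlier results of these data known. Gene names are those of the array, and 38 of the 52 probes had a RefSeq symbol by accession, which differed for 7. Probe coordinates are of build rn3, and exon positions were not determined. The alternatives were other scalings (75th percentile, quantile, normexp with an offset of 50), the authors' matrix, a floor of 0.1, a filter on dim probes, an intensity trend, the methods' t-test, the mean of a gene's probes, every array as a sample, litter means, rat, slide and scan day as random blocks, L1 alone, each rat left out, and, chosen after seeing the data, L1 left out.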

Additional observations from a re-analysis of the deposited data

Results flagged for a closer look

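In 8 of 131 sets of a gene in a group, 1 rat lay far from the others, and chance gives about 1 in 20. In L1, rat 10 had a Gsto1 level of 4.62 beside 5.51 to 5.69 and a Sult1d1 level of -0.27 beside -1.09 to -0.98. In L2, rat 24 had 8.54 for Gstp1 beside 7.53 to 7.73, 10.24 for Gstp2 beside 9.51 to 9.70 and 1.16 for Sult1b1 beside -0.25 to 0.01. The 3 sustentacular markers of rat 24 summed to 87.0, where the other pups of L2 had 207.3 to 303.4, and their part in these values was not tested. In L3, rat 30 had 3.23 for Sult5a1 beside 3.87 to 4.10, and rat 29 had -3.61 for Ugt2a3 where the others were at the floor of -6.64, all below background. Among old rats, rat 20 had 6.33 for Sult4a1 beside 5.98 to 6.03.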

How the results depend on the processing

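Of the 7 counts of called genes under the alternatives other than leaving out a rat, 90 of 105 stayed within 1.5 times the reported count. Between newborn and adult rats, 14 genes were lower with quantile normalization in place of 9. Between newborn and old rats, 5 genes were higher with the methods' t-test and 1 with L1 alone, in place of 2. Between adult and old rats, where 1 gene was higher, 2 were with the 75th percentile, quantile normalization, normexp or the floor of 0.1, 3 with every array as a sample and 0 with litter means; where 13 were lower, 8 were with normexp and 20 with every array as a sample. Between litters, 13 genes became 7 with normexp, 5 with slide as a block, 8 with scan day as a block and 2 with L1 left out, which was chosen after seeing the data. Leaving out 1 rat at a time gave 7 to 9 higher and 8 to 10 lower for newborn against adult, 2 to 3 and 14 to 17 for newborn against old, 1 and 10 to 14 for adult against old rats, and 9 to 16 between litters. The change between newborn and adult rats took the other sign and was no longer called for Gsta4 and Gstp2. Gsta4 gave -0.144 with quantile normalization (adjusted p = 0.124) and -0.0137 with normexp (adjusted p = 0.905). Gstp2 gave -0.194 with quantile normalization (adjusted p = 0.0345) and -0.0923 with normexp (adjusted p = 0.343). Of 1000 other values of named genes, 915 kept direction and side of the threshold, as did 1742 of 1782 with a rat left out. The share of higher calls among all called probes was 57.6% for newborn against adult, and 47.5% with the 75th percentile, 46.8% with quantile normalization and 45.0% with normexp. For adult against old rats it was 36.7%, and 43.3%, 51.8% and 51.8%. The cause was not tested. No paired analysis was possible because no replicate numbers are shared between groups. Genes below background have no measured level.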
